A study of Bos taurus with 2 samples.

Results

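miR-1777a and miR-1777b are a pair of bovine microRNAs (miRNAs) that were the brightest of the 670 on a milk miRNA array when RNA from the whey supernatant was measured. They were found by their names, bta-miR-1777a and bta-miR-1777b, among the miRNA spots of both scanned arrays, which gave 2 miRNAs of 670. The pair was chosen for its brightness on the supernatant array, so its levels and its difference between the fractions are descriptions, and no test was made of them. The study spun whey from raw milk of Holstein cows at a labelled 10000 g for 90 min at 4 °C. The pellet, which the labels call exosome, was washed in PBS and spun again; the other group is the liquid left above the pellet. No other treatment is labelled for either group. RNA of 3 milk samples was pooled in equal parts per fraction, and 40 ng was labelled with the dye Cy3. The labels name no vesicle marker, so the word exosome is used here as a label of the pellet. Each fraction was measured on 1 array. A difference between fractions therefore has no replicate check, and every ± below is an SD between spots of 1 array.

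miRNAs are short RNAs that lead Argonaute proteins to messenger RNAs through a short stretch near their 5′ end, the seed, and lower the output of the messenger. In milk they occur inside vesicles and outside them, bound to proteins. On this type of array a short DNA probe pairs with the 3′ part of a miRNA. The maker shortens probes for GC-rich miRNAs to bring their melting temperatures closer together, so GC-rich miRNAs are read by short probes. How brightly a spot shines depends on the probe's pairing as well as on the amount of RNA, and the brightness of different probes is not an order of amounts.

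The probes are shown first because they set how far the members can be told apart. Each member had 2 probes, 1 of 10 bases and 1 of 11 bases. The capitals mark the 9-base run shared by all of them.

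miR-1777a, shorter probe: CCCGCCCCCc
miR-1777a, longer probe: CCCGCCCCCca
miR-1777b, shorter probe: cCCCGCCCCC
miR-1777b, longer probe: cCCCGCCCCCc

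The shared run stands at the 5′ end of the miR-1777a probes and is shifted by 1 base in the miR-1777b probes. The stretches of RNA that pair with the longer probes, written with T for U, are the reverse complements.

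Paired with the longer miR-1777a probe: tgGGGGGCGGG
Paired with the longer miR-1777b probe: gGGGGGCGGGg

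The whole shorter miR-1777a probe lies within the longer miR-1777b probe. The GC share was 100% for 3 of the 4 probes and 90.9% for the longer miR-1777a probe, against a median of 50% over the 1465 miRNA probes. Cytosine alone made up 81.8% of the longer miR-1777a probe, 90% of both shorter probes and 90.9% of the longer miR-1777b probe, against a median of 26.7%. Only 3 of the 1465 probes were at least 90% cytosine, and all of these 3 belong to the pair. The probes were also short: 57 of the 1465 had 11 bases or fewer, and the median length was 16 bases.

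The members lie on different chromosomes. In the array design, which uses build HGSC Btau_3.1, the longer miR-1777a probe is placed at chr6:120390035-120390044 and the longer miR-1777b probe at chr7:60971949-60971958. Each interval is 10 bases for a probe of 11, so an end is known to within 1 base, and no strand is given. In ARS-UCD2.0, as annotated by RefSeq and used here for names and neighbours, both miRNA genes were matched, on the same chromosomes as in the array design. MIR1777A overlapped no other gene and lay within 10 kb of LRPAP1, which encodes a chaperone of LDL-receptor-family proteins. MIR1777B overlapped PDGFRB, which encodes a receptor for platelet-derived growth factor; whether the overlap is exonic or intronic was not analysed here.

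miR-1777a read 1314 ± 50.7 scanner units in exosome and 125084 ± 4036 in supernatant, over 58 spots each. Its spots ran from 1189 through a median of 1320 to 1412 in exosome and from 107227 through 124890 to 135239 in supernatant. The lowest supernatant spot stood far above the highest exosome spot, and the ranges did not overlap. miR-1777b read 2079 ± 105 in exosome (60 spots), with spots from 1680 through 2024 to 2472. In supernatant it read 102937 ± 4296 (60 spots), with spots from 79872 through 100294 to 124189. These ranges did not overlap between the arrays either. All of these signals are unscaled, and 70.0% of the 30 miRNAs detected on both arrays were at least 2-fold brighter on the supernatant array. The share of other miRNAs whose ranges did not overlap was not counted, so the gap is not read as a trait of the pair. Detected means that at least 50% of a probe's spots were well above background by the scanner software. All spots kept for the pair were so on both arrays. Of the 670 miRNAs, 9.85% were detected in exosome, 12.7% in supernatant and 4.48%, or 30, in both.

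**Figure D1:**
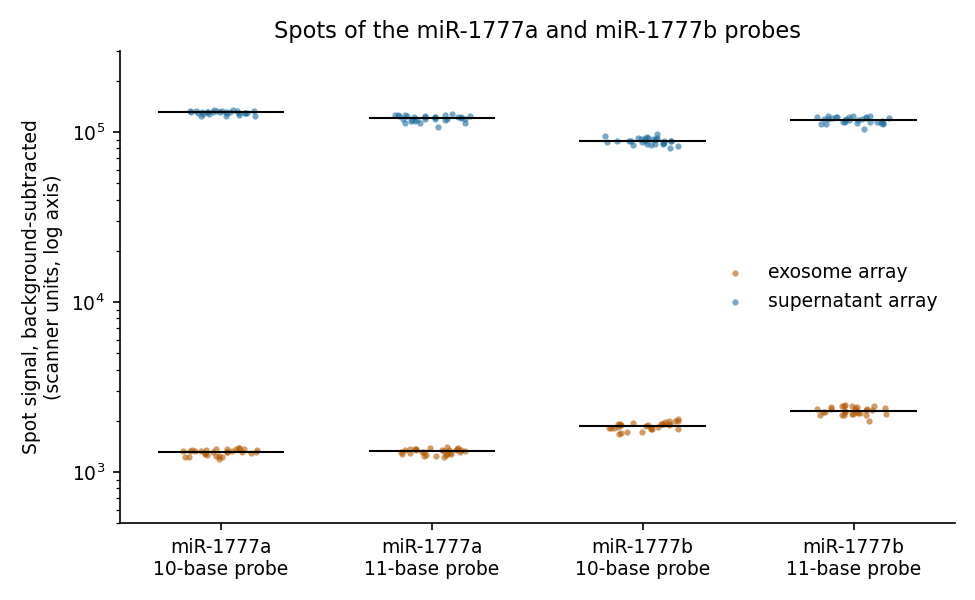
Background-subtracted signal (scanner units, log axis) of each spot of the 4 probes, 28 to 30 spots per probe and array; the black line is the mean. Supernatant spots lie between 79872 and 135239 and exosome spots between 1189 and 2472, with little spread within a probe.

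By signal, miR-1777a and miR-1777b ranked 1 and 2 on the supernatant array. They also ranked 3 and 2 on the exosome array, so the pair was among the brightest miRNAs of both fractions. Just outside the pair, the miRNA ranked 3 on the supernatant array was miR-2305 at 58909 ± 2633. On the exosome array miR-2478 ranked 1, at 69241 ± 5134, and let-7b ranked 4, at 828 ± 47.6. let-7b belongs to a conserved family linked to cell differentiation. The authors' deposited table, in log2 units, gave the same ranks among miRNAs: 13.4 and 20.0 for miR-1777a and 14.1 and 19.7 for miR-1777b, exosome and supernatant in that order.

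The probes of 1 member read alike in how they differed between fractions. The shorter miR-1777a probe read 1308 ± 52.1 in exosome and 130099 ± 2953 in supernatant, a log2 difference without scaling (exosome minus supernatant) of -6.64. The longer one read 1320 ± 49.3 and 120069 ± 4885, a difference of -6.51. The shorter miR-1777b probe read 1865 ± 93.5 and 88463 ± 3765, a difference of -5.57, and the longer one 2292 ± 115 and 117410 ± 4768, a difference of -5.68. Between the probes of a member the differences lay 0.13 ± 0.10 apart for miR-1777a and -0.11 ± 0.13 for miR-1777b, longer minus shorter. The added base thus went with a small step of opposite sign in the 2 members, of about the size of the spread between spots. The coefficient of variation between spots was 3.73% to 5.01% in exosome and 2.27% to 4.26% in supernatant. With each array split into 4 areas, the means of the areas differed by at most 1.10-fold for these probes. No spot of the pair was saturated: the brightest reached 17.4% of the saturation value. The scanner software marked 2 of the pair's 120 spots on each array as outliers, all from miR-1777a, and these were left out.

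Without scaling, the supernatant array was 95.2-fold brighter for miR-1777a and 49.5-fold brighter for miR-1777b, log2 differences of -6.57 and -5.63. Most miRNAs seen on both arrays were brighter there: of 30 such miRNAs, 70.0% were at least 2-fold brighter on the supernatant array and 16.7% on the other, with a median log2 difference of -3.69. The arrays were therefore scaled to the 75th percentile over the 53 probes that both arrays detected, 473 in exosome and 15030 in supernatant, which raised each difference by 4.99. After scaling the difference was -1.58 ± 0.073 for miR-1777a, or 3.00-fold more in supernatant, and -0.64 ± 0.094 for miR-1777b, or 1.56-fold. At this scale the supernatant was higher by 2-fold or more for 26.7% of the 30 miRNAs, and exosome for 53.3%. miR-1777a was among the 8 higher in supernatant and miR-1777b was not. The median of the 30 was 1.30. From the most supernatant-rich, miR-1777a stood at position 8 and miR-1777b at position 11, in the supernatant-rich part of the order but not at its end.

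**Figure D2:**
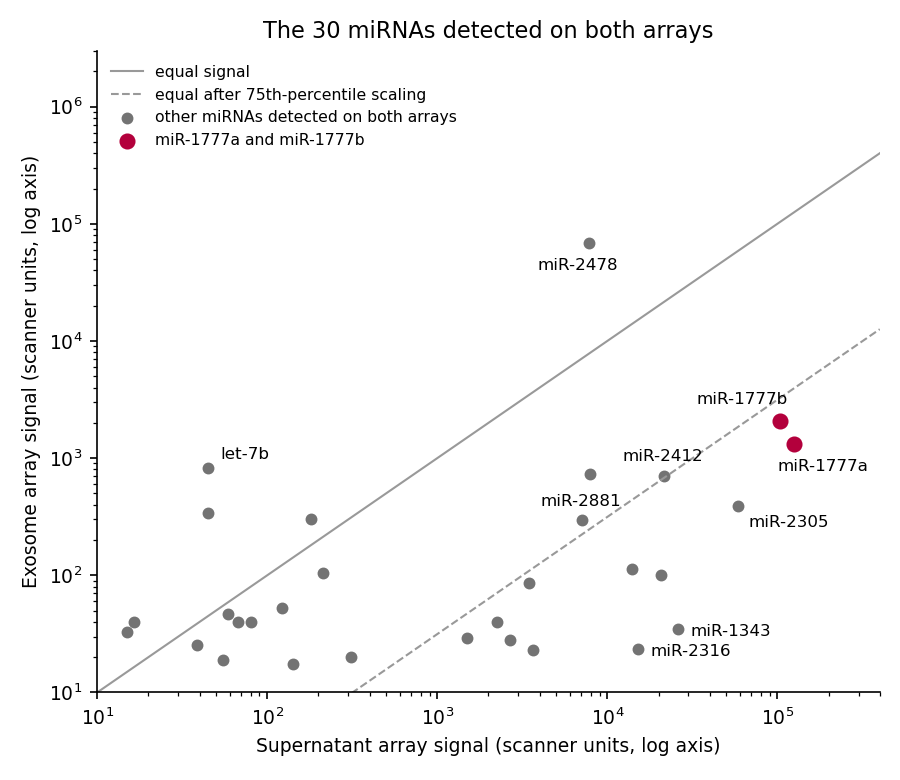
Signal on the exosome array against signal on the supernatant array (scanner units, log axes) for the 30 miRNAs detected on both. The solid line marks equal signal and the dashed line equality after scaling to the 75th percentile; miR-1777a (125084 and 1314) and miR-1777b (102937 and 2079) lie farthest right, below the dashed line.

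The size of the members' differences rests on the scaling. The 4 probes of the pair were among the 53 that set the percentile, and without them the differences were -1.11 and -0.17. Scaled to spiked hybridisation controls, RNAs of known identity added before the array is hybridised, they were -6.49 and -5.55. Scaled to labelling controls, added before the dye is attached, they were -8.16 and -7.22. The log2 difference, exosome minus supernatant, was 1.80 for the labelling control dmr_285 and 1.38 for dmr_31a. It was -0.06 for the hybridisation control dmr_3 and -0.10 for dmr_6. Spots of the controls spread widely. In exosome and supernatant, dmr_285 read 237 ± 142 and 68.4 ± 41.0, and dmr_31a 116 ± 18.2 and 44.5 ± 6.54. dmr_3 read 5886 ± 3386 and 6130 ± 3441, and dmr_6 1479 ± 385 and 1587 ± 431. The control-scaled values are therefore less exact than their digits. The part of labelling in the members' differences was not tested. Quantile normalization gave -1.69 for miR-1777a and 0.00 for miR-1777b. This method sets each value by its rank on the array, so the 0.00 comes from equal ranks and is no measured equality. Neither member was higher in exosome under any of the 20 alternatives: miR-1777a was negative in 20 and miR-1777b in 19, with quantile normalization at 0. miR-1777a was at least 2-fold higher in supernatant in 20 of the 20 and miR-1777b in 5. All alternatives reuse the same arrays and a pair chosen for supernatant brightness, so these counts are no independent support for the direction. Some could hardly change it: requiring every probe left both values at -1.58 and -0.64.

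**Figure D3:**
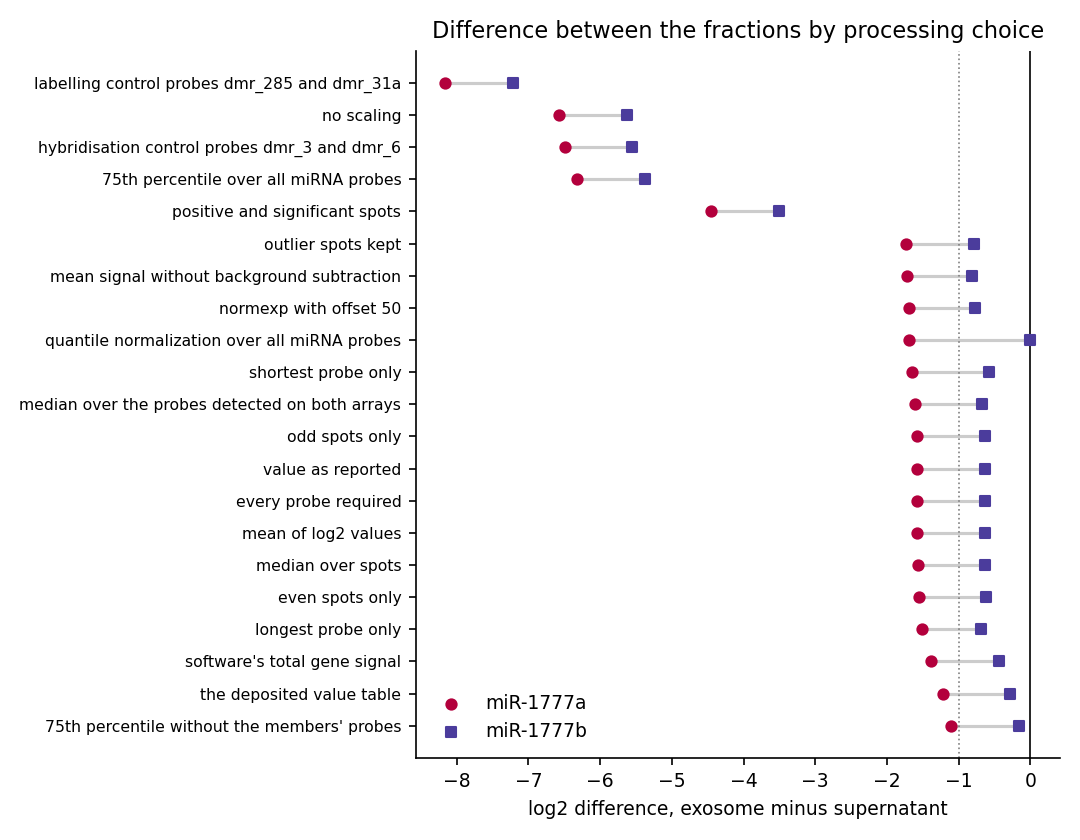
log2 difference, exosome minus supernatant, of miR-1777a (circles) and miR-1777b (squares) under each processing choice; the dotted line marks 2-fold more in supernatant. The circles lie left of the dotted line throughout, from -8.16 to -1.11, and the squares from -7.22 to 0.

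The members differed from each other in a way that a common scaling factor cannot change. The difference of miR-1777a minus that of miR-1777b was -0.94 ± 0.12 on the log2 scale, or 1.92-fold. Over the 4 pairings of a miR-1777a probe with a miR-1777b probe it ran from -1.07 ± 0.12 (both shorter) to -0.83 ± 0.12 (both longer). Each pairing exceeded the spread between spots several times over, but 1 array per fraction gives no measure of the spread between samples. Under quantile normalization, which is no common factor and sets values by rank, it was -1.69. That is the value of miR-1777a alone, since miR-1777b stood at 0.00.

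miR-2881 is a miRNA registered in cattle. It alone of the other miRNAs had a probe within 1 mismatch of a member's, counted over the whole overlap of at least 9 bases. Its longer probe holds the same 9-base run, marked in capitals, and its shorter probe all but the last base of it. In all, 5 of the 1465 probes, from 3 miRNAs, held the run, and 0 held its reverse complement. A 9-base stretch inside the miR-2305 probes also lay within 1 mismatch of the miR-1777b probes, but a further mismatch lay next to it. Such partial stretches were not searched for. The miR-2881 probes are shown to compare what flanks the run.

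miR-2881, shorter probe: caCCCGCCCC
miR-2881, longer probe: caCCCGCCCCC

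The longer miR-2881 probe read 523 ± 24.4 in exosome and 12100 ± 760 in supernatant, and the shorter one 67.5 ± 5.92 and 2177 ± 93.5. Their unscaled log2 differences were -4.53 and -5.01. Averaged over its probes, miR-2881 had a scaled difference of 0.39 ± 0.14, so it lay above both members. miR-2881 minus miR-1777a was 1.98 ± 0.16 on the log2 scale, or 3.93-fold, and miR-2881 minus miR-1777b was 1.03 ± 0.17, or 2.05-fold. The 3 miRNAs that share the run thus had 3 different fraction differences, each apart from the next by more than the spread between spots. The size of the step depended on the probe. After scaling, the shorter and longer probes stood at -0.02 ± 0.14 and 0.46 ± 0.11 for miR-2881. For miR-1777b they stood at -0.58 ± 0.095 and -0.69 ± 0.093. How far RNA of 1 of them also pairs with the probes of the others was not tested.

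The miRNAs whose fraction difference was nearest were chosen over the 2 fractions by the distance in log2 difference, among the other 28 detected on both arrays. For miR-1777a they were miR-1249 (-1.60 after scaling), miR-2328* (-1.96), miR-2305 (-2.25) and miR-2374 (-2.31). For miR-1777b they were miR-2892 (-0.69), miR-2391 (-0.83), miR-1584 (-0.34) and miR-2412 (0.05). miR-1249 lay -0.02 from miR-1777a, within its own SD between spots of 0.23. miR-2892 lay -0.05 from miR-1777b, within its SD of 0.15, and miR-2391 lay -0.19 away, beyond its SD of 0.16. On the exosome array the 8 neighbours read from 23.1 ± 3.02 (miR-2374) to 704 ± 32.7 (miR-2412), all below both members. The members' differences had smaller SDs than the median of 0.19 over the 30. In 6 of the 8 the longest probe had 11 to 13 bases and a GC share of 76.9% to 91.7%. The exceptions were miR-1249 and miR-2391, with longest probes of 15 bases and GC shares of 60% and 53.3%. Such probes were not particular to the neighbours. The 3 most supernatant-rich of the 30, miR-1343, miR-2316 and miR-2888, are not among the 8. Their longest probes had 11 or 12 bases and GC shares of 75% to 100%. At 0.39, 1.05 and 3.44 after scaling, miR-2881, miR-2455 and miR-2291 had longest probes within the ranges given for the 6. The share over all 28 was not counted. The part of probe composition in these differences was not tested.

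Among miRNAs whose longest probe was within 1 base of the members' in length and within 5 percentage points in GC share, there were 10 others. Of these 8 were detected in supernatant and 4 in exosome, while both members were detected on both. The 4 brightest on the supernatant array were miR-2305 at 58909 ± 2633, miR-1343 at 26097 ± 2105, miR-2881 at 7138 ± 541 and miR-2892 at 1504 ± 36.0. These are also the 4 detected on both arrays, and their scaled differences were -2.25, -4.57, 0.39 and -0.69, a median of -1.47. miR-1777a at -1.58 and miR-1777b at -0.64 lay within that range. At the dim end, miR-2886 read 12.4 ± 3.77 and miR-2889 5.45 ± 3.69 on the supernatant array, where the negative control spots read 4.41 ± 3.35. Short GC-rich probes were thus bright in some miRNAs and near the negative controls in others.

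Within such probes the pair stood at the cytosine end. Probes of at most 11 bases with at least 90% GC numbered 24 from 13 miRNAs. This grouping by cytosine was chosen after the values were seen. The pair was chosen for its brightness on the supernatant array, so its place at the top there was set by that choice. The 4 probes of the pair read 88463 to 130099 on the supernatant array. The 9 others with at least 50% cytosine were all detected there, at 23.1 to 60282. Of the 11 with 18.2% to 30% cytosine, 5 were detected there, and they read 1.56 to 1514. On the exosome array 4 of 4, 5 of 9 and 2 of 11 were detected. The highest signal of the 11 was 32.9 there, below the pair's lowest of 1308. Over all 1465 probes, 166 were detected in supernatant and 103 in exosome. Signal did not rise steadily with cytosine. On the supernatant array the 10-base miR-1343 probe, at 60% cytosine, read 44656, and the 10-base miR-2881 probe, at 80%, read 2177. The part of cytosine in the signals was not tested.

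**Figure D4:**
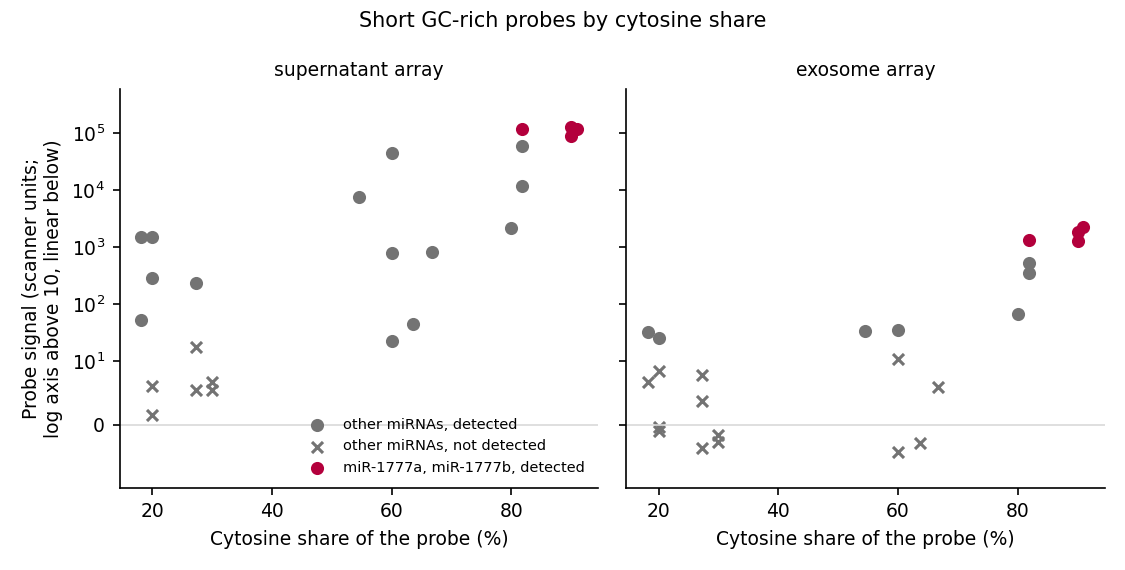
Signal (scanner units, log axis above 10 and linear below) of the 24 probes of at most 11 bases and at least 90% GC against their cytosine share, on each array; circles are detected probes and crosses are not. The pair's probes, at 81.8% to 90.9% cytosine, are the highest points in both panels, and the crosses on the supernatant array all lie at 30% or less.

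The fractions were also read through lists of marker miRNAs. Over all 670 miRNAs, 9.85% were detected in exosome and 12.7% in supernatant, the shares to set beside the counts below. Of 5 epithelial miRNAs of the miR-200 family, 4 were detected in exosome and 2 in supernatant, with summed signals, before scaling, of 768 and 231. Of 7 miRNAs rich in milk, 6 and 2 were detected, with sums of 1553 and 171. Relative to each array's 75th percentile, the epithelial sums were 162% and 1.53% and the milk-rich sums 328% and 1.14%. Of 6 leukocyte miRNAs, 0 and 1 (miR-223) were detected, with sums of 3.49 and 15.5, and of 3 red blood cell miRNAs, 0 and 1 (miR-486), with sums of -2.10 and 33.4. The 2 blood-cell sums were higher on the supernatant array before scaling, but no miRNA of either list was detected in exosome. As a share of each array's 75th percentile the leukocyte sum was 0.737% in exosome and 0.103% in supernatant. The exosome sum of 3.49 lay below the mean of that array's negative control spots, 4.67 ± 3.46, so this change of order is not read. The red blood cell sum was -0.443% and 0.222%. The part of blood cells in the pair's difference was not tested. Fewer vesicles or cells of a kind and less RNA in each cannot be told apart here.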

How the data were processed

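RNA of 1 pooled sample per fraction was measured on 1-colour Agilent arrays. The deposited scanner values are intensities, extracted with Agilent Feature Extraction 10.7.3.1 per the file headers and the submitters' processing notes; the processed signal is background-subtracted and not scaled between arrays. The table of values that the authors deposited holds log2 values, namely log2 of the software's total signal per miRNA over 0.1, to within 6.2e-06; other steps of the authors are not given in the sources used here.

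Of 40200 miRNA spots per array, 1005 (exosome) and 1032 (supernatant) outlier spots were dropped. A probe's signal is the mean of its spots, and a miRNA's the mean of its probes, with the probes' SDs pooled as a root mean square. Signals were divided by the 75th percentile of probes detected on both arrays and taken to log2. Each fraction has 1 array, so nothing was tested, and the number of arrays limits the precision.

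Named miRNAs were the pair, the 5 other brightest per array (those needed are described) and the 4 nearest in difference. Also named were those with a probe within 1 mismatch over the whole overlap of at least 9 bases. The last were those alike in length and GC share, with the 4 brightest named. Seeds were not used here. The members and lists were chosen with earlier results of these data known. Alternatives covered scaling, background, probe summary, outliers, odd or even spots and detection. On simulated data for this comparison, 190 of 190 miRNAs detected on both arrays came back within 0.25 log2 of the truth after a common offset of -0.41. The offset was the median of the errors themselves, so the check cannot judge the scaling between arrays. The simulated differences also spanned less than those of the 30 miRNAs here, from -4.57 to 9.20. Values were computed with limma 3.58.1 in R 4.3.3 (normexp) and, otherwise, pandas 2.3.3 and numpy 2.4.6 in Python 3.11.15; figures with matplotlib 3.10.9.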

Additional observations from a re-analysis of the deposited data

How the results depend on the processing

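Values are log2 differences, exosome minus supernatant, miR-1777a first and miR-1777b second, against -1.58 and -0.64 as reported. Those moved by more than the SD between spots were -6.57 and -5.63 without scaling, -6.32 and -5.38 with the 75th percentile over all miRNA probes, -8.16 and -7.22 with labelling controls, -6.49 and -5.55 with hybridisation controls, -1.11 and -0.17 without the pair's probes in the percentile, and -1.69 and 0.00 with quantile normalization. They were -1.70 and -0.78 with normexp (offset 50), -1.72 and -0.81 without background subtraction, -1.74 and -0.79 with outlier spots kept, -1.38 and -0.44 with the software's total signal, -1.22 and -0.28 with the deposited value table, and -4.45 and -3.51 with probes called detected from spots positive and significant. That rule also raised the miRNAs detected on both arrays from 30 to 123, and requiring every probe gave 22. The other 8 alternatives per member moved the difference by less. The pair's signals per array moved beyond the SD between spots in 4 of 11 alternatives each. No paired analysis was possible because each fraction has 1 array. Both members lay far above the negative controls on both arrays, so dim signal does not limit them; the single array per fraction does.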

Other observations

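The close match between the longer and shorter probes of each member was not shared by miR-1343, whose GC-only probes also begin with 7 bases of the pair's run. Its 10-base probe had an unscaled log2 difference of -10.31 and its 11-base probe -7.80, while the probes of each member lay at most 0.13 apart. A close match was not particular to the pair, however. The unscaled differences of the shorter and longer probes were -7.68 and -7.67 for miR-2888 and -7.39 and -7.09 for miR-2305. The probes of miR-1343 are CCCGCCCggg and CCCGCCCgggg, with the shared bases in capitals.

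Base composition differed between the arrays beyond the pair. The 166 probes detected on the supernatant array had a median cytosine share of 46.7% and a median guanine share of 23.1%. The 103 detected on the exosome array had 35% and 17.6%, and all 1465 had 26.7% and 20%. Length and GC share differed too. Median length was 13 bases for probes detected in supernatant, 16 for those detected in exosome and 16 over all. Median GC share was 71.4%, 53.3% and 50% in the same order. These are values of 2 arrays, and probes of a miRNA overlap in sequence.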
